A study of Homo sapiens with 40 samples.

Results

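Death receptors are cell surface proteins that can start apoptosis when a ligand binds them, and FADD, CASP8 and CFLAR are the proteins that meet at their inner tails. Described here are the messenger RNA counts of 7 of these genes: the receptors FAS, TNFRSF10A and TNFRSF10B, the decoy receptor TNFRSF10D, the adaptor FADD, the initiator protease CASP8 and its inhibitor CFLAR. They were chosen by name, each matched to 1 row of the count table through its Ensembl identifier, and make up 7 of the 19962 genes listed. All 7 passed the filter on low counts and were tested in every comparison, among 11428 genes in all.

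The 40 libraries came from RKO, an established human colorectal carcinoma line, carrying Cas9 that doxycycline (Dox) switches on. The 3 lines derived from it held a vector with paired guide RNAs and were sorted for the blue fluorescent protein of that vector: sgAAVS1 cells (guides to AAVS1, a non-coding control locus), sgIGF2BP2 cells and sgIGF2BP3 cells (guides to the genes of these RNA-binding proteins). In each line 4 libraries came from cells given the solvent DMSO and 4 from cells given Dox at 250 ng/mL for 72 hours. In the sgIGF2BP2 line, cells without Dox also received a small interfering RNA (siRNA) pool to IGF2BP2, named siIGF2BP2, or a non-targeting one (siControl), at 75 nM for 48 hours. The sgIGF2BP3 line likewise received siIGF2BP3 or siControl, which gives 10 groups of 4 libraries. All groups were labelled with the nucleoside s4U at 250 µM for 2 hours before harvest. Each condition was 1 well per replicate, and p-values measure the spread between such wells.

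FAS binds FAS ligand, and TNFRSF10A (DR4) and TNFRSF10B (DR5) bind TRAIL, the product of TNFSF10. A bound receptor gathers FADD through a shared death domain, and FADD recruits procaspase-8, which becomes active when its molecules meet. CFLAR encodes c-FLIP, a relative of caspase-8 that sits in the same complex and limits its activation, and TNFRSF10D (DcR2) binds TRAIL but has a truncated death domain. In many cells FAS, TNFRSF10A, TNFRSF10B and TNFRSF10D are known targets of p53, and TNFRSF10B is also known as a target of CHOP in the unfolded protein response.

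The reference promoter table (RefSeq, GRCh38.p14) held windows for 4 of the 7 genes: 3 for FAS, 1 for FADD, 3 for CASP8 and 4 for CFLAR. It held none for TNFRSF10A, TNFRSF10B and TNFRSF10D. The 250 bases before each start were searched on both strands for the consensus p53 half-site, the AP-1 motif TGANTCA, the GC box GGGCGG, the cyclic AMP element TGACGTCA and an NF-kB consensus. The CCAAT box and the TATA box TATAAA were searched for too. FAS is shown because it moved most in the data below, and FADD and CASP8 because they sit next to it in the signalling complex and moved differently. The FADD and CASP8 stretches are the part of the 250 bases that lies outside annotated exons, 117 and 230 bases. In the FAS stretch capitals mark the p53 half-site match, and in the other 2 the GC box found there. The searched FADD window holds another GC box that is not shown. A different CASP8 window, also not shown, holds a p53 half-site match, and the FAS window holds 2 GC boxes outside the stretch shown. 
FAS, chr10:88991299-88991328, plus strand: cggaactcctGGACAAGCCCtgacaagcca
FADD, chr11:70203046-70203162, plus strand: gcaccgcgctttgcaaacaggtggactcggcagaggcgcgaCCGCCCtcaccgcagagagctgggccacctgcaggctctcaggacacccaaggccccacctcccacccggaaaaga
CASP8, chr2:201233213-201233442, plus strand: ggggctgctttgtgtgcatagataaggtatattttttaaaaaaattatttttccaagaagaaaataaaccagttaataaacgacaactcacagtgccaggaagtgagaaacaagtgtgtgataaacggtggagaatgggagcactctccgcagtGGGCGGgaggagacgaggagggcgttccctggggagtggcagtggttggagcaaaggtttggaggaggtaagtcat

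In GENCODE release 29 the FAS stretch lies within an intron of 11 of 20 FAS transcripts, 4 of these coding, within an exon of 2 non-coding FAS transcripts, and within an exon of 1 ACTA2 transcript on the other strand. The p53 half-site matched in 1 of the 3 FAS windows and 1 of the 3 CASP8 windows, and in 5.57% of 35116 promoter windows of the same length. The GC box matched in all 3 FAS windows, in the FADD window, in 1 CASP8 window and in 2 CFLAR windows, and in 42.6% of all windows. AP-1 matched in 1 window each of FAS, CASP8 and CFLAR (6.57% of all windows). The NF-kB motif and the cyclic AMP element matched in none of these 11 windows (0.527% and 1.65% of all). The CCAAT and TATA boxes both matched in the CASP8 window that holds the p53 half-site match, and in no other (32.0% and 10.7% of all). These are matches of letters and say nothing of binding.

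Total counts ranged from 10018181 to 24822807 per library (median 13468792). Of the general epithelial and intestinal markers checked, EPCAM, KRT8, KRT18 and CDX2 were counted in every library. CDH1, KRT19, CDX1, VIL1, LGALS4 and CDH17 had at most 4 counts in any library, and leukocyte and endothelial markers had at most 8. VIM, a mesenchymal marker, was counted in every library too, at a median of 34.0 CPM. The targeted genes checked the labels: IGF2BP2 fell by 1.34 on the log2 scale with Dox in sgIGF2BP2 cells and by 1.84 with siIGF2BP2, and IGF2BP3 fell by 1.68 with Dox in sgIGF2BP3 cells and by 2.78 with siIGF2BP3. IGF2BP3 also fell with Dox in sgIGF2BP2 cells, by 0.25 (edgeR adjusted p = 2.9e-06), and IGF2BP2 was higher with siControl than with DMSO in both lines, by 0.34 and 0.28. The library of sgIGF2BP2 Dox replicate 2 stood apart from its group: its 3 pairings gave a chi-square per gene of 11.8 to 16.6, against a median of 2.28 over 60 replicate pairs. Without it, the same 4 genes rose with Dox in sgIGF2BP2 cells, and FAS rose by 0.84 in place of 0.86 on the log2 scale. In the siIGF2BP2 group the pairings of replicate 3 gave 6.45, 5.66 and 5.67, and the other pairs 1.49 to 1.84.

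Levels are given in CPM, counts scaled to a fixed TMM-adjusted library total. A bulk library cannot tell fewer cells with a transcript from less of it per cell. Within genes, counts were ample: the lowest count in any library was 180 for FAS and 229 for CFLAR, where counting error alone is 7.45% and 6.61%, and 2128 for TNFRSF10B, where it is 2.17%. Divided by length, the order of the genes depended on which length was used. Per kilobase of median coding transcript over the 12 DMSO libraries, TNFRSF10B stood at 61.9 CPM and TNFRSF10D at 49.7 CPM, followed by TNFRSF10A at 24.8, FADD at 20.2, CASP8 at 19.4, CFLAR at 15.1 and FAS at 12.9. Per kilobase of all exons combined, TNFRSF10D (49.7 CPM) stood above TNFRSF10B (35.2 CPM), and CFLAR (1.10 CPM), whose annotated exons are far longer in sum, was lowest. On both scales the TRAIL receptor TNFRSF10B and the decoy were the 2 highest, and FAS, CASP8 and CFLAR the 3 lowest.

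**Figure D1:**
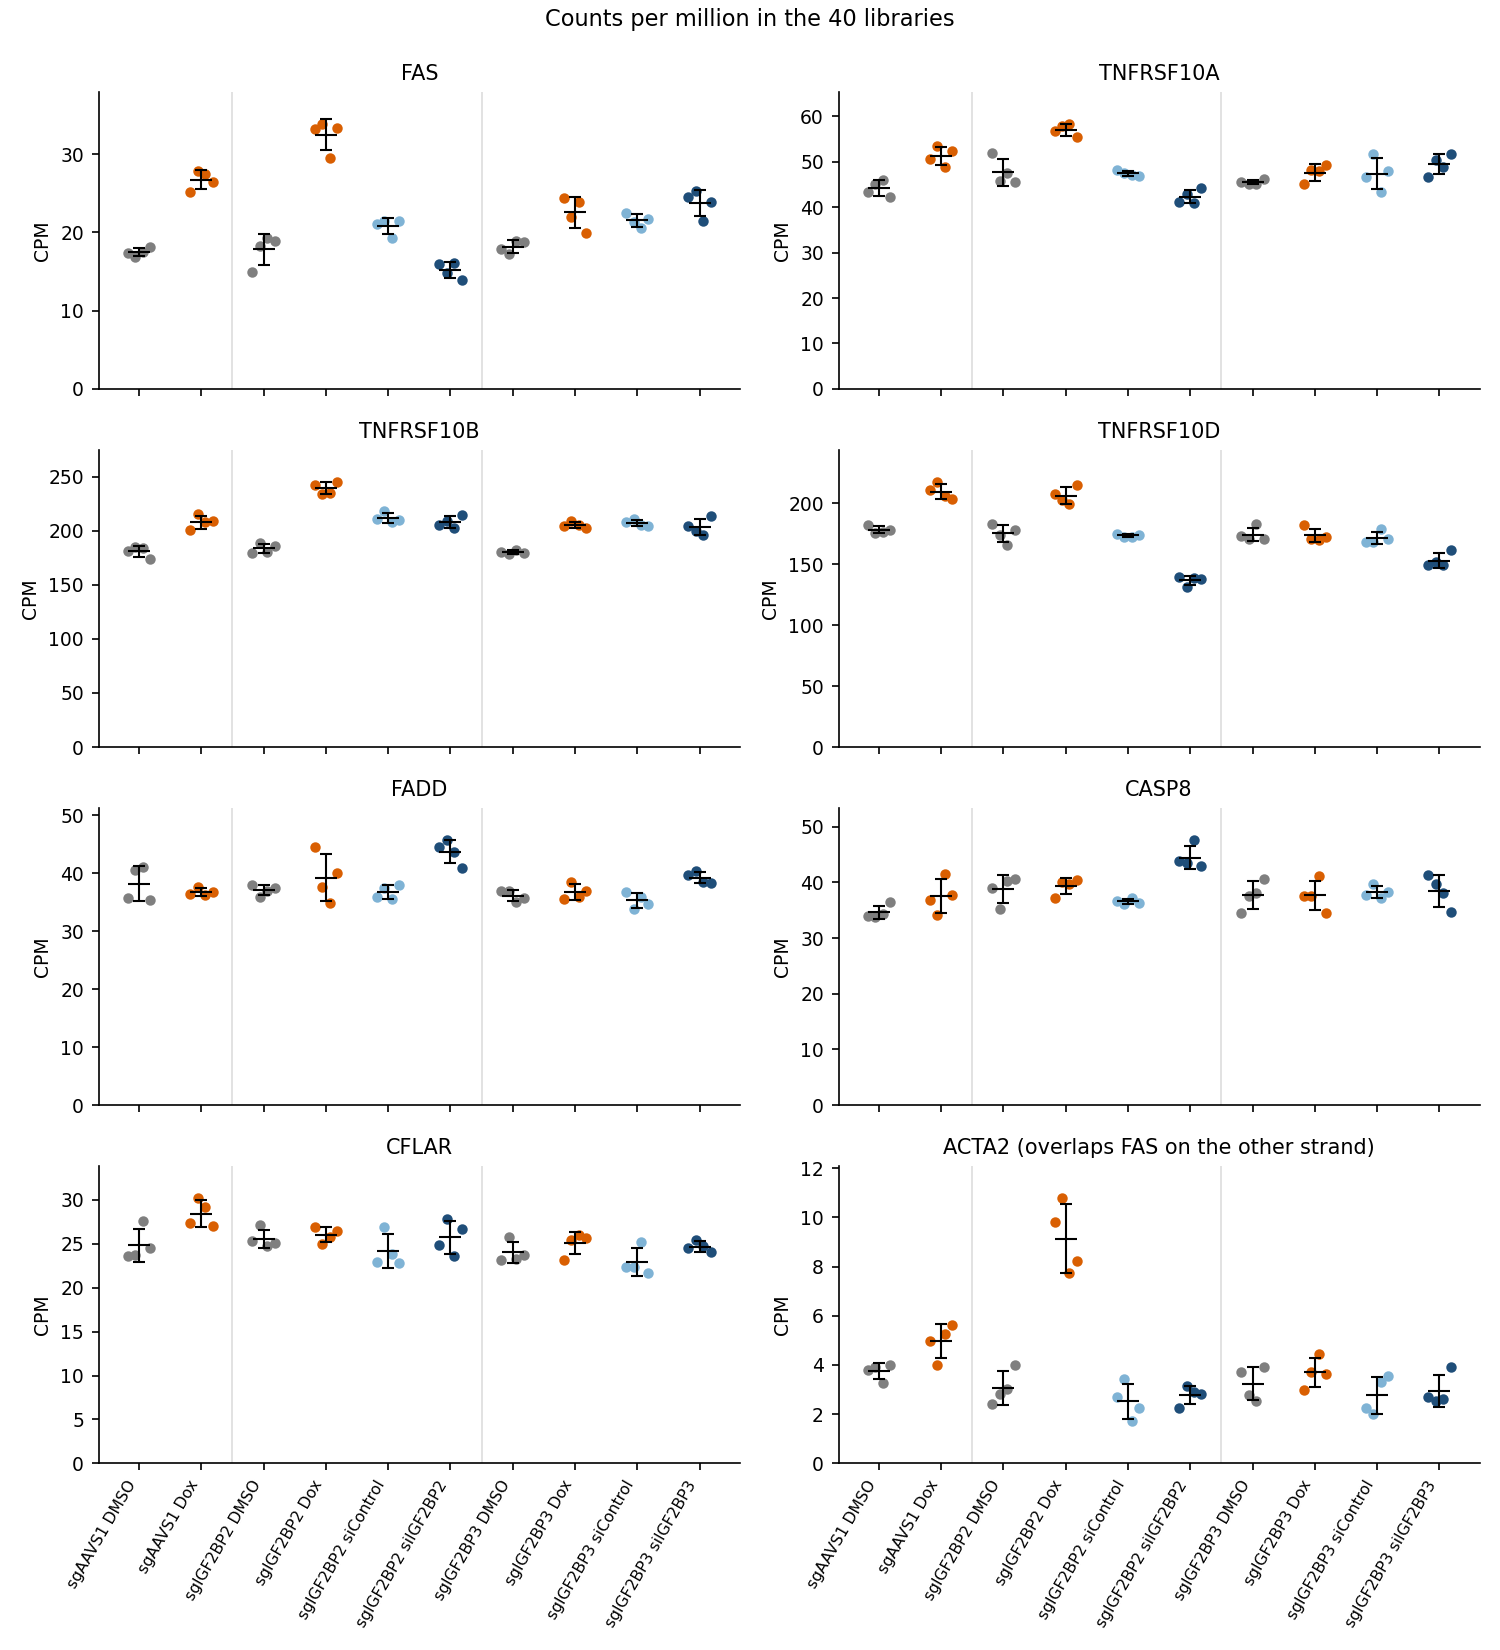
CPM (vertical axes, starting at 0) of the 7 genes and of ACTA2 in the 40 libraries, by group. Points are libraries (grey DMSO, orange Dox, light blue siControl, dark blue targeting siRNA) and black bars the mean ± SD of 4. FAS spans 14.0 to 33.9 CPM and is highest in sgIGF2BP2 Dox libraries, and CASP8 is highest in the siIGF2BP2 group and CFLAR in the sgAAVS1 Dox group.

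Giving Dox, which induces Cas9, was followed by higher receptor RNAs, while FADD and CASP8 did not pass the test in any line. No group had Dox without Cas9 and guides, so Dox itself, Cas9 and cutting cannot be told apart. A gene is called changed at an adjusted p under 0.05 in edgeR's quasi-likelihood test with Benjamini-Hochberg adjustment over all 11428 genes. With Dox in sgAAVS1 cells, 5 of the 7 genes rose (FAS, TNFRSF10A, TNFRSF10B, TNFRSF10D and CFLAR), where 15.9% of all genes changed and 7.25% rose. In sgIGF2BP2 cells 4 rose (FAS, TNFRSF10A, TNFRSF10B and TNFRSF10D), where 20.4% of all genes changed and 10.0% rose. In sgIGF2BP3 cells 2 rose (FAS and TNFRSF10B), where 2.64% of all genes changed and 1.64% rose. The median log2 fold change of the 7 was 0.20, 0.24 and 0.06 in the 3 lines, beside medians between 0.00 and 0.01 over all genes.

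The 2 knockdowns gave another picture. With siIGF2BP2, FAS, TNFRSF10A and TNFRSF10D fell and FADD and CASP8 rose, 5 of 7 changed, but 36.8% of all genes changed in that comparison, 18.4% of them up and 18.4% down as shares of all tested. Markers moved in the same comparison: the summed epithelial markers (EPCAM, KRT8, KRT18, KRT19 and CDH1, the last 2 at or near 0) were 227 to 229.8 CPM with siControl and 189 to 226 CPM with siIGF2BP2. Most of that sum was KRT18, with a median of 191 CPM over the libraries, beside 53.8 for KRT8 and 13.8 for EPCAM. The summed mesenchymal markers, nearly all VIM since COL1A2 was at 0 and COL3A1 and PDGFRB had at most 2 counts, were 29.3 to 31.7 and 32.9 to 39.3 CPM. With DMSO in that line the epithelial sum was 258 to 275 CPM and the mesenchymal sum 34.2 to 37.8 CPM, so both also differed between DMSO and siControl. The part of these markers in the changes was not tested. With siIGF2BP3, TNFRSF10D fell and the other 6 did not pass the test, where 2.34% of all genes changed and 1.40% fell. The median log2 fold change of the 7 was -0.03 with siIGF2BP2 and 0.06 with siIGF2BP3, beside 0.01 and 0.00 over all genes.

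**Figure D2:**
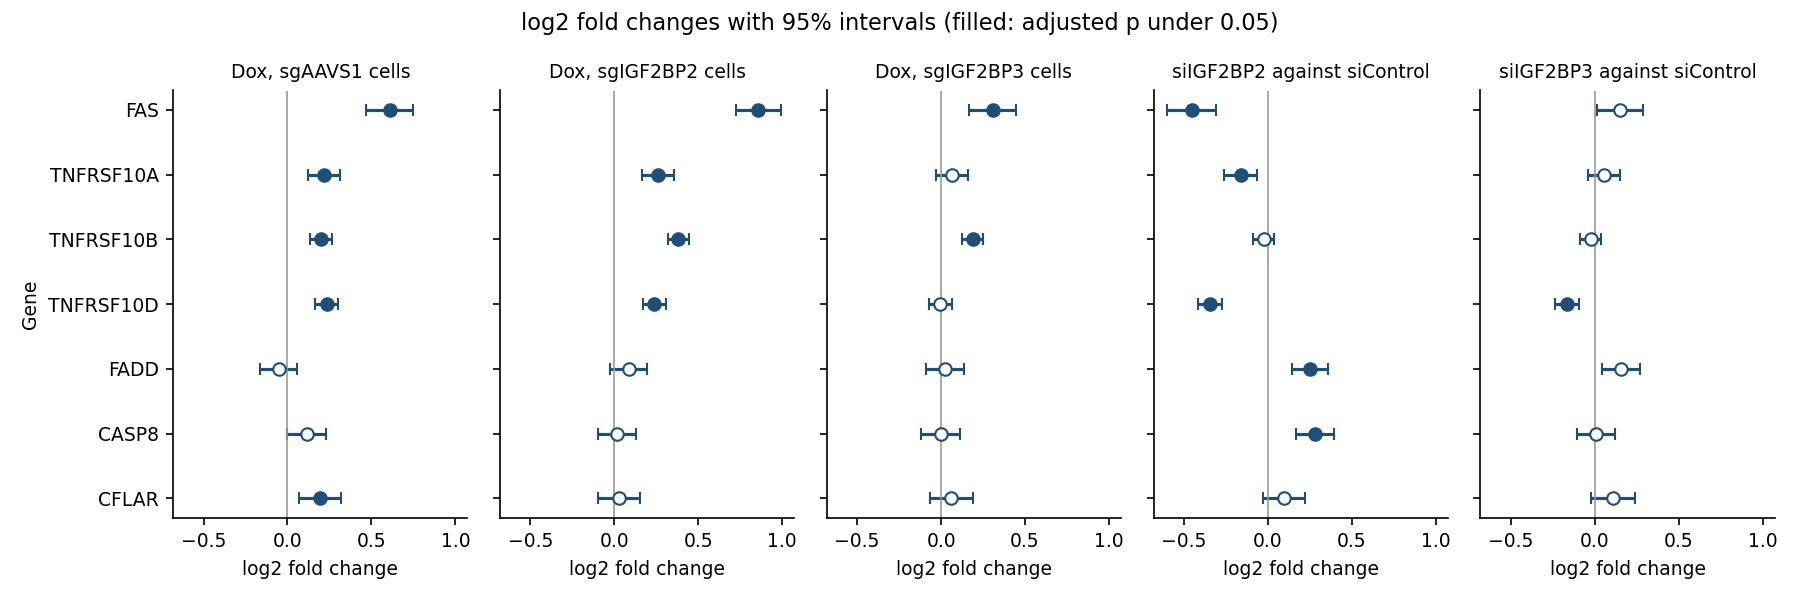
log2 fold changes (horizontal axes) of the 7 genes in the 5 treatment comparisons, with 95% intervals; filled points passed an adjusted p under 0.05. The 4 receptor genes lie to the right of 0 with Dox in sgAAVS1 and sgIGF2BP2 cells, whereas FAS lies at -0.45 and TNFRSF10D at -0.34 with siIGF2BP2.

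FAS, the receptor of FAS ligand, had the greatest fold change of the 7 in each line with Dox. In sgAAVS1 cells it measured 17.4, 16.9, 17.5 and 18.1 CPM with DMSO and 25.2, 27.8, 27.5 and 26.4 CPM with Dox. In sgIGF2BP2 cells it measured 14.9, 18.3, 19.2 and 18.9 CPM with DMSO and 33.2, 33.9, 29.5 and 33.4 CPM with Dox. In sgIGF2BP3 cells it measured 17.9, 17.3, 18.9 and 18.8 CPM with DMSO and 24.4, 21.97, 23.9 and 19.98 CPM with Dox. Every Dox library stood above every DMSO library of its line, and the 3 Dox groups were ordered sgIGF2BP2, sgAAVS1, sgIGF2BP3 with no overlap between neighbours. The rise was 1.52-fold in sgAAVS1 cells (log2 fold change 0.61 ± 0.07 SE, edgeR adjusted p = 9.5e-10), 1.81-fold in sgIGF2BP2 cells (0.86 ± 0.07, adjusted p = 3.1e-16) and 1.24-fold in sgIGF2BP3 cells (0.31 ± 0.07, adjusted p = 0.0079).

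The siRNAs moved FAS in sgIGF2BP2 cells. With siControl it measured 21.1, 21.5, 19.3 and 21.4 CPM, and with siIGF2BP2 16.0, 14.9, 16.1 and 14.0 CPM, below every siControl library and 0.73-fold in all (log2 fold change -0.45 ± 0.07 SE, edgeR adjusted p = 9.8e-07). In sgIGF2BP3 cells FAS measured 22.5, 21.3, 20.6 and 21.8 CPM with siControl and 24.5, 25.3, 21.4 and 23.9 CPM with siIGF2BP3, and these groups overlapped. That difference did not pass the test (log2 fold change 0.15, 95% interval 0.01 to 0.29, adjusted p = 0.31). The siIGF2BP2 group was the lowest of the 10 for FAS, and the sgIGF2BP2 Dox group the highest. The sgAAVS1 Dox group, with control guides, came next at a mean of 26.7 CPM. The Dox effect on FAS was not called different between sgIGF2BP2 and sgAAVS1 cells (difference 0.25, edgeR adjusted p = 0.11). The siRNA and Dox comparisons used different controls, times and delivery.

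FAS shares exon bases with ACTA2, the smooth muscle actin gene on the other strand: 380 bases, 8.94% of the FAS exon length. The library kit keeps strand, but whether the deposited counts used it is not given in the sources used here, so reads of these bases may belong to either gene. ACTA2 itself measured 2.40, 2.83, 3.02 and 4.01 CPM with DMSO and 9.80, 10.8, 7.72 and 8.24 CPM with Dox in sgIGF2BP2 cells, a 3.00-fold rise (log2 fold change 1.59 ± 0.15 SE, edgeR adjusted p = 8.9e-13). ACTA2 did not pass the test in the other 4 treatment comparisons, with log2 fold changes from 0.10 to 0.40. In sgIGF2BP2 cells the mean of FAS went from 17.8 to 32.5 CPM with Dox, and the mean of ACTA2 with Dox was 9.14 CPM. That level holds only the reads assigned to ACTA2, and how many reads of ACTA2 were counted as FAS was not tested. With the counts of both genes summed, the log2 fold change was 0.57, 0.99 and 0.29 for Dox in the sgAAVS1, sgIGF2BP2 and sgIGF2BP3 lines and -0.38 with siIGF2BP2, and all 4 passed the test. The counts of FAS per ACTA2 count ran from a mean of 3.60 in the sgIGF2BP2 Dox group to 8.68 in the siControl group of that line.

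TNFRSF10B, the TRAIL receptor DR5, rose with Dox in all 3 lines. It measured 181, 185, 184 and 173 CPM with DMSO and 200.2, 215, 208 and 209 CPM with Dox in sgAAVS1 cells. It measured 179.5, 189, 180.3 and 186 CPM with DMSO and 242, 234, 235 and 245 CPM with Dox in sgIGF2BP2 cells. It measured 181, 178, 182 and 179.5 CPM with DMSO and 204, 209, 205 and 203 CPM with Dox in sgIGF2BP3 cells. No Dox library fell within the range of its DMSO group, and the sgIGF2BP2 Dox group stood above all other groups. The rises were 1.15-fold (log2 fold change 0.20 ± 0.03 SE, edgeR adjusted p = 3.8e-06), 1.30-fold (0.38 ± 0.03, adjusted p = 3.0e-15) and 1.14-fold (0.19 ± 0.03, adjusted p = 7.5e-05) in the same order. Neither knockdown moved it past the threshold: the log2 fold change was -0.03 with siIGF2BP2 (95% interval -0.09 to 0.04) and -0.02 with siIGF2BP3 (-0.09 to 0.04). TNFRSF10B shares 67 exon bases with RHOBTB2 on the other strand, 1.30% of its exon length.

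TNFRSF10A, the TRAIL receptor DR4, passed the test with Dox in 2 lines and with siIGF2BP2. It measured 43.3, 45.2, 46.0 and 42.3 CPM with DMSO and 50.5, 53.4, 49.0 and 52.4 CPM with Dox in sgAAVS1 cells. The sgIGF2BP2 line measured 51.9, 45.7, 47.5 and 45.6 CPM with DMSO and 56.8, 57.8, 58.4 and 55.4 CPM with Dox. The Dox libraries stood above the DMSO libraries in both lines, by 1.16-fold (0.22 ± 0.05 SE on the log2 scale, edgeR adjusted p = 0.00099) and 1.20-fold (0.26 ± 0.05, adjusted p = 2.8e-05). In sgIGF2BP3 cells the means were 45.5 ± 0.47 CPM with DMSO and 47.6 ± 1.82 CPM with Dox (SD, n = 4 each), overlapping, and the difference did not pass the edgeR test (adjusted p = 0.55, 95% interval of the log2 fold change -0.03 to 0.16). With siIGF2BP2 it measured 41.2, 43.0, 41.1 and 44.1 CPM against 48.1, 47.6, 47.1 and 46.9 CPM with siControl. Every siIGF2BP2 library was lower, by 0.16 ± 0.05 on the log2 scale (log2 fold change -0.16, adjusted p = 0.0069). With siIGF2BP3 its log2 fold change was 0.06 (adjusted p = 0.69). On the other strand AC100861.1 overlaps 266 TNFRSF10A exon bases (9.01%) and TNFRSF10A-AS1 overlaps 224 (7.59%). The count table lists neither, so their reads cannot be told apart from those of TNFRSF10A without the strand setting.

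The decoy TNFRSF10D was the one gene of the 7 that fell in both knockdowns. It measured 175, 173, 173 and 174 CPM with siControl and 139, 131, 139 and 138 CPM with siIGF2BP2, a 0.79-fold level (log2 fold change -0.34 ± 0.04 SE, edgeR adjusted p = 1.7e-12). In sgIGF2BP3 cells it measured 169, 168, 178 and 170.5 CPM with siControl and 149, 151, 149 and 162 CPM with siIGF2BP3, a 0.89-fold level (-0.16 ± 0.04, adjusted p = 0.0023). Neither pair of groups overlapped, and the knockdown groups were the 2 lowest of the 10.

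With Dox the decoy followed the other receptors in 2 lines. It measured 182, 176, 177 and 178 CPM with DMSO and 211, 217, 206 and 204 CPM with Dox in sgAAVS1 cells. The sgIGF2BP2 line measured 183, 174, 166 and 178 CPM with DMSO and 208, 203, 199 and 215 CPM with Dox. Both Dox groups stood clear of their DMSO groups, 1.18-fold higher in each (0.23 and 0.24 on the log2 scale, SE 0.03 for both; edgeR adjusted p = 5.6e-07 and 2.0e-07). In sgIGF2BP3 cells it measured 173, 170.3, 183 and 171 CPM with DMSO and 182, 170.4, 170.2 and 172 CPM with Dox, groups that overlapped throughout. The log2 fold change there was -0.01, with a 95% interval of -0.07 to 0.06 (adjusted p = 0.96).

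TNFRSF10D and TNFRSF10B lie on chromosome 8 within the same cluster (GRCh38: TNFRSF10B 23020133 to 23069179, TNFRSF10D 23135588 to 23164030 and TNFRSF10A 23190452 to 23225126, all on the minus strand), and their counts can be set against each other within a library, where scaling cancels. In the DMSO groups there were 0.986 ± 0.037, 0.955 ± 0.047 and 0.968 ± 0.024 decoy counts per DR5 count (SD, n = 4; sgAAVS1, sgIGF2BP2 and sgIGF2BP3). With Dox the ratio was 1.01 ± 0.033, 0.862 ± 0.013 and 0.847 ± 0.033, overlapping the DMSO libraries in sgAAVS1 cells and lying below every DMSO library in the 2 knockout lines. The siControl groups had 0.821 ± 0.020 and 0.828 ± 0.032. With siIGF2BP2 the ratio was 0.659 ± 0.028 and with siIGF2BP3 0.751 ± 0.014, below every siControl library in both lines. The ratio was described and not tested.

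**Figure D3:**
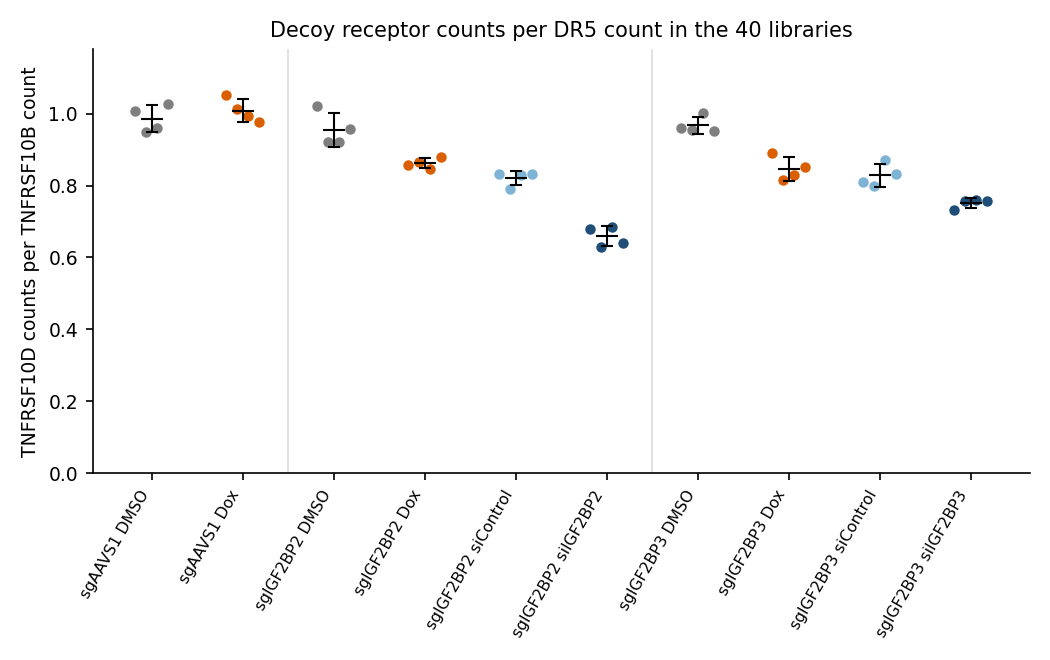
TNFRSF10D counts per TNFRSF10B count (vertical axis, starting at 0) in the 40 libraries, by group; points are libraries and bars the mean ± SD of 4. The ratio is near 1 in the DMSO groups and lowest, at 0.659, in the siIGF2BP2 group.

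FADD, the adaptor, was not called in any Dox comparison. Its means with DMSO and Dox were 38.2 ± 3.03 and 36.8 ± 0.65 CPM in sgAAVS1 cells, 37.1 ± 0.86 and 39.3 ± 4.08 CPM in sgIGF2BP2 cells, and 36.1 ± 0.92 and 36.7 ± 1.38 CPM in sgIGF2BP3 cells (SD, n = 4), with overlap in each line. The 95% intervals of its log2 fold changes lay between -0.16 and 0.19 in the 3 lines. With siIGF2BP2 it measured 44.5, 45.7, 43.7 and 41.0 CPM against 36.0, 37.5, 35.6 and 38.0 CPM with siControl. All 4 knockdown libraries were higher, 1.19-fold (log2 fold change 0.25 ± 0.05 SE, edgeR adjusted p = 0.00016). With siIGF2BP3 it measured 39.7, 40.4, 38.5 and 38.4 CPM against 36.8, 33.9, 35.9 and 34.8 CPM, groups that did not overlap, but the difference did not pass the test over all genes (log2 fold change 0.16, 95% interval 0.05 to 0.27, adjusted p = 0.14). An antisense gene, AP000879.1, which the count table does not list, overlaps 1011 FADD exon bases (54.9%), and without the counting's strand setting its reads cannot be told apart from those of FADD.

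CASP8, the initiator caspase, passed the test in 1 of the 5 treatment comparisons, that of siIGF2BP2. It measured 36.7, 36.2, 37.2 and 36.2 CPM with siControl and 43.8, 43.4, 47.6 and 43.0 CPM with siIGF2BP2, with no overlap, a 1.21-fold level (log2 fold change 0.28 ± 0.06 SE, edgeR adjusted p = 5.7e-05). The siIGF2BP2 group was also above the next highest of the 10 groups without overlap. With siIGF2BP3 the means were 38.2 ± 1.10 and 38.4 ± 2.86 CPM (SD, n = 4), and the log2 fold change of 0.01 had a 95% interval of -0.11 to 0.12. With Dox its log2 fold change was 0.12 in sgAAVS1 cells (edgeR adjusted p = 0.19, 95% interval -0.0014 to 0.23), 0.01 in sgIGF2BP2 cells and -0.0028 in sgIGF2BP3 cells.

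CFLAR, the c-FLIP gene, passed the test in 1 of the 5 treatment comparisons. In sgAAVS1 cells it measured 23.6, 23.7, 27.6 and 24.5 CPM with DMSO and 27.3, 30.2, 29.2 and 27.0 CPM with Dox. One DMSO library, replicate 3, lay within the Dox range, and the log2 fold change was 0.19 ± 0.06 SE (edgeR adjusted p = 0.030). The call was lost with no filter on low counts and when DMSO replicate 1, 2 or 4 or Dox replicate 2 or 3 of that line was left out, with adjusted p up to 0.11. In the other 4 treatment comparisons its log2 fold change lay between 0.03 and 0.11, and none passed the test. The group means of CASP8 counts per CFLAR count lay between 1.33 (sgAAVS1 Dox) and 1.74 (sgIGF2BP2 siIGF2BP2). CFLAR and CASP8 are neighbours on chromosome 2 (GRCh38: CFLAR 201116104 to 201176687, CASP8 201233443 to 201287711, both on the plus strand). Exon bases of CFLAR are shared with IMPDH1P10 (1488 bases) and CFLAR-AS1 (777) on the other strand. AC007283.1 on the same strand shares 445. The count table lists none of these genes, and how the counting treated the shared bases is not given.

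Whether the Dox effect differed between lines was tested as a difference of log2 fold changes. These differences share the sgAAVS1, sgIGF2BP2 or sgIGF2BP3 libraries with each other and with the comparisons above. Against sgAAVS1 cells, the sgIGF2BP2 line had a greater Dox effect on TNFRSF10B alone of the 7 (difference 0.18 ± 0.05 SE, edgeR adjusted p = 0.0069), where 6.97% of all genes differed. The FAS difference of 0.25 ± 0.10 did not pass (adjusted p = 0.11). The sgIGF2BP3 line had a smaller Dox effect than sgAAVS1 cells on TNFRSF10D (-0.24 ± 0.05, adjusted p = 0.00088), where 7.78% of all genes differed. FAS was close to the threshold in that comparison (-0.30 ± 0.10, adjusted p = 0.052) and passed it under upper-quartile scaling and when only the libraries compared were fitted. Between the 2 knockout lines 3 of 7 differed, where 2.91% of all genes did: sgIGF2BP3 cells had smaller Dox effects on FAS (-0.55 ± 0.10, adjusted p = 0.00019), TNFRSF10B (-0.19 ± 0.05, adjusted p = 0.0068) and TNFRSF10D (-0.24 ± 0.05, adjusted p = 0.0012). FADD, CASP8 and CFLAR did not pass in any of these 3 comparisons.

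The 2 siRNA effects, each against the siControl of its own line, differed for 4 of 7 genes, where 18.7% of all genes differed. The siIGF2BP3 effect was higher than the siIGF2BP2 effect on FAS (difference 0.61 ± 0.10 SE, edgeR adjusted p = 5.7e-06), TNFRSF10A (0.22 ± 0.07, adjusted p = 0.020) and TNFRSF10D (0.18 ± 0.05, adjusted p = 0.0066), and lower on CASP8 (-0.27 ± 0.08, adjusted p = 0.012). The FADD difference of -0.09 had a 95% interval of -0.25 to 0.06. The TNFRSF10A call was lost without sgIGF2BP3 siControl replicate 3 (adjusted p = 0.074).

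Cells given siControl differed from cells given DMSO in 2 of the 7 genes in both lines, and these groups also differ in time in culture with the agent and in transfection. In sgIGF2BP2 cells 18.4% of all genes changed and 10.2% rose, and in sgIGF2BP3 cells 19.4% changed and 10.9% rose. TNFRSF10B was higher with siControl in both (0.21 and 0.20 on the log2 scale, SE 0.03 for both; edgeR adjusted p = 1.1e-06 and 2.0e-06). FAS was higher too (0.21 ± 0.07 and 0.24 ± 0.07, adjusted p = 0.029 and 0.011). The FAS call in sgIGF2BP2 cells was lost when DMSO replicate 1 or siControl replicate 1, 2 or 4 was left out, and in both lines when the counts of FAS and ACTA2 were summed (adjusted p = 0.14 and 0.065). The siControl groups of TNFRSF10B, at 212 ± 4.41 and 207 ± 2.81 CPM (SD, n = 4), lay beside the sgAAVS1 Dox group at 208 ± 6.04 CPM.

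Between the 3 lines with DMSO none of the 7 genes passed the test in any of the 3 comparisons, where 0.0175% of all genes did in each (2 genes). At an unadjusted p under 0.05 there were 2, 1 and 0 of the 7 (sgIGF2BP2 against sgAAVS1, sgIGF2BP3 against sgAAVS1, and sgIGF2BP3 against sgIGF2BP2), and DESeq2 also called none. The share of all genes at that unadjusted threshold was not counted, so these numbers cannot be set against the 0.0175%. The log2 differences of the 7 genes between uninduced lines ran from -0.08 to 0.17, the largest for CASP8 in sgIGF2BP2 against sgAAVS1 cells (95% interval 0.06 to 0.28).

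The rest of the pathway was read from a list of 45 other genes, of which 35 were tested. The ligand genes were at or near 0: TNFSF10, TNF and LTA had no count in any library, FASLG at most 1 and TNFSF15 at most 7. A count of 0 in the smallest library allows up to 0.299 CPM, counting error only. The second decoy TNFRSF10C had at most 1 count, and the soluble decoys TNFRSF11B and TNFRSF6B, the kinase RIPK3 and the ubiquitin ligase subunit RNF31 were listed at 0 throughout. All exon bases of TNFRSF6B, 39.1% of those of RNF31, 39.3% of those of TNFRSF10C and 10.995% of those of RIPK3 lie in exons of other annotated genes, and for none of the other 6 untested genes is any base shared. How the counting treated shared bases is not given, so the limit above does not bound the expression of these 4 genes.

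With Dox, 7 of the 35 rose and 2 fell in sgAAVS1 cells, where 15.9% of all genes changed, among them 4 of the 12 inhibitors and ubiquitin enzymes up and 1 down. BIRC3, the inhibitor cIAP2, rose by 0.86 ± 0.11 SE on the log2 scale (edgeR adjusted p = 1.5e-08), CASP10, a relative of CASP8, by 0.47, and CYLD, a deubiquitinase of the receptor complexes, by 0.46, while CRADD, an adaptor, fell by 0.30. In sgIGF2BP2 cells 3 rose (BIRC3 0.58, CYLD 0.39 and BIRC2, the inhibitor cIAP1, 0.20) and 2 fell, OTULIN, a deubiquitinase, among them (-0.18), where 20.4% of all genes changed. Upper-quartile scaling gave 6 up and 2 down there. In sgIGF2BP3 cells 2 rose, TNFAIP3 (the ubiquitin editor A20, 0.53) and BIRC3 (0.48), where 2.64% of all genes changed. The list's median log2 fold change was 0.04, -0.0010 and 0.03 in the 3 lines, and none of its 4 mitochondrial releasers (DIABLO, HTRA2, CYCS and APAF1) was called in any of them.

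With siIGF2BP2, 4 of the 35 rose and 12 fell, where 18.4% of all genes rose and 18.4% fell, and the list's median log2 fold change was -0.05 beside 0.01 over all genes. The orphan death receptor TNFRSF21 fell most, by 0.67 on the log2 scale (edgeR adjusted p = 1.7e-10). CASP10 rose by 0.36 and the adaptor TRADD by 0.33, and BIRC3 fell by 0.35. By role, those that fell were 1 of 3 receptors, 2 of 6 adaptors and kinases, 2 of 7 caspases with their substrate BID, 4 of 12 inhibitors and ubiquitin enzymes, 1 of 4 mitochondrial releasers and 2 of 3 proteins with or near a death effector domain. With siIGF2BP3 edgeR called none of the 35, where 2.34% of all genes changed, and DESeq2 called none. At an unadjusted p under 0.05 there were 3, and the share of all genes at that threshold was not counted. TNFRSF21, BIRC3 and CASP10 differed between the 2 siRNA effects (differences 0.55, 0.54 and -0.50, siIGF2BP3 minus siIGF2BP2, edgeR adjusted p = 8.9e-05, 0.0035 and 0.034).

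Of 30 listed p53 targets other than the 7 genes, 26 were tested. With Dox 13 rose in sgAAVS1 cells, 24 in sgIGF2BP2 cells and 10 in sgIGF2BP3 cells, and none fell in any line, where 7.25%, 10.0% and 1.64% of all genes rose. The median log2 fold change of the list was 0.20, 0.49 and 0.20, next to 0.61, 0.86 and 0.31 for FAS and 0.20, 0.38 and 0.19 for TNFRSF10B. GDF15, a stress cytokine gene, rose by 1.25, 1.31 and 0.68, and BTG2, an antiproliferative gene, by 0.44, 1.37 and 0.77 in the same order. In the difference between sgIGF2BP2 and sgAAVS1 cells 15 of 26 were higher and none lower, where 6.97% of all genes differed. Between sgIGF2BP3 and sgIGF2BP2 cells 10 were lower and none higher, where 2.91% of all genes differed. With siIGF2BP2 the list split, with 8 up and 7 down and a median of 0.03, where 18.4% of all genes rose and 18.4% fell: CDKN1A, the cell cycle inhibitor p21, ZMAT3 and GDF15 fell by 0.38, 0.40 and 0.42, while DDB2, a DNA repair gene, rose by 0.35. DESeq2 gave 5 up and 7 down. With siIGF2BP3 MDM2 rose by 0.16 and RRM2B fell by 0.19, where 2.34% of all genes changed. There DESeq2 gave 0 up and 1 down, and upper-quartile scaling 1 up and 0 down.

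Of 15 listed NF-kB targets 13 were tested, and 2 of the 15, BIRC3 and TNFAIP3, are also in the pathway list. With Dox 5 rose and 1 fell in sgAAVS1 cells, 7 rose and 0 fell in sgIGF2BP2 cells, and 3 rose and 1 fell in sgIGF2BP3 cells. Of all genes 15.9%, 20.4% and 2.64% changed in these lines, and 7.25%, 10.0% and 1.64% rose. With siIGF2BP2 6 fell and 0 rose, with IER3, an early response gene, at -1.17, where 18.4% of all genes fell, and with siIGF2BP3 edgeR called none (0 at an unadjusted p under 0.05, and none by DESeq2). Of 15 listed ATF4 and CHOP targets 12 were tested. Beside the same shares, they showed 2 up and 1 down with Dox in sgAAVS1 cells, 4 up and 2 down in sgIGF2BP2 cells and 0 up and 1 down in sgIGF2BP3 cells. DDIT4, a stress-induced inhibitor of mTORC1, rose by 0.60 and 0.93 in the first 2 of these lines. With siIGF2BP2 2 rose and 2 fell, the oxidase gene ERO1A by -0.73 and the pseudokinase gene TRIB3 by -0.45, where 18.4% of all genes rose and 18.4% fell. With siIGF2BP3 ERO1A alone fell, by 0.14, where 1.40% of all genes fell.

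Across the 40 libraries, which share lines, treatments and scaling, FAS varied in log2 CPM with the other receptor genes more than with FADD, CASP8 or CFLAR. Pearson's r between FAS and TNFRSF10A was 0.79, between FAS and TNFRSF10B 0.69 and between FAS and TNFRSF10D 0.65, while FAS gave -0.17 with FADD, -0.08 with CASP8 and 0.22 with CFLAR. TNFRSF10B and TNFRSF10D gave only 0.23, and TNFRSF10D gave -0.44 with both FADD and CASP8. The most alike among 9958 genes whose log2 CPM averaged 2 or more were, for FAS, ZMAT3 (0.89), CDKN1A (0.89) and BTG2 (0.83), and for TNFRSF10A, CDKN1A (0.83), FAS (0.79) and ZMAT3 (0.79). For TNFRSF10B they were BCL2L1 (0.85), TP53INP1 (0.83) and GSN (0.83), and for TNFRSF10D IL11 (0.94), PIP5KL1 (0.88) and TERF2IP (0.87). The best values for FADD (GAS8, ZNF785 and SH3D21), CASP8 (DYNC2LI1, BABAM2 and PSME3IP1) and CFLAR (MAP7, MECOM and TPM2) were lower, at most 0.73. These are descriptions of the 40 libraries, with no test.

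The genes around the loci moved to different extents with Dox, where 7.25%, 10.0% and 1.64% of all genes rose in sgAAVS1, sgIGF2BP2 and sgIGF2BP3 cells. Of 13 other tested genes within 500 kb of the TNFRSF10 cluster, none rose with Dox in any line by edgeR's test, and 2 fell in sgAAVS1 cells. Near CASP8 and CFLAR, 2, 1 and 0 of 13 rose and 1, 1 and 0 fell in sgAAVS1, sgIGF2BP2 and sgIGF2BP3 cells, and near FADD none of 3 was called. Near FAS, 3, 3 and 1 of 6 rose and none fell, with median log2 fold changes of 0.38, 0.40 and 0.19: STAMBPL1, IFIT3 and IFIT5 in sgAAVS1 cells, ACTA2, LIPA and IFIT3 in sgIGF2BP2 cells and IFIT3 in sgIGF2BP3 cells. IFIT3, an interferon-induced gene, rose in all 3 lines (log2 fold changes 0.60, 0.61 and 0.73).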

How the data were processed

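Poly(A) RNA of RKO cells was sequenced as SLAMseq libraries with a directional kit, per the labels' protocols. What the authors deposited is raw read counts for each gene in 40 libraries, without normalization. The submitters' processing notes name STAR 2.7.5c, bcl2fastq 2.20.0.422 and the hg38 build; the counting tool, annotation and strand setting are not given in the sources used here. The s4U label was not read out here. Identifiers were named through GENCODE release 29.

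Genes were kept by filterByExpr (11428 genes, 99.98% of counts), scaled by TMM and fitted with edgeR 4.0.16 (R 4.3.3) by quasi-likelihood over all 40 libraries, with 1 coefficient per group. In all, 14 contrasts were tested, with Benjamini-Hochberg adjustment over all genes tested. SE is the log2 fold change divided by the square root of F, and 95% intervals are 1.96 SE either side. Procedures were tested on simulated data. Alternatives were DESeq2's size factors (RLE), upper-quartile factors, no filter, a replicate block, only the libraries compared, DESeq2 1.42.0, leaving out each of 40 libraries and, added after seeing the data, FAS and ACTA2 summed. The genes named were the 7, ACTA2, the 2 targeted genes, the 3 genes most alike each member, and up to 4 called genes per list and contrast with the greatest change; neighbours named within 500 kb and untested list genes were chosen after their values were seen. The members and lists were chosen with earlier results of these data known.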

Additional observations from a re-analysis of the deposited data

Results flagged for a closer look

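In the sgIGF2BP2 Dox group, FAS in replicate 3 measured 29.5 CPM, below the other 3 libraries of its group by a gap of 0.848 of the group's whole range. Across 70 groups of 4 libraries examined (7 genes in 10 groups), 1 stood out in this way, and chance alone flags about 1 in 20.

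Effects of Dox differed between lines, and effects of the siRNA pools between pools, by edgeR's test of the difference. Each targeting pool was given to its own line only, so pool and line cannot be told apart. With Dox, sgIGF2BP2 minus sgAAVS1 cells gave 0.18 on the log2 scale for TNFRSF10B, and sgIGF2BP3 minus sgAAVS1 cells gave -0.24 for TNFRSF10D. With Dox, sgIGF2BP3 minus sgIGF2BP2 cells gave -0.55 for FAS, -0.19 for TNFRSF10B and -0.24 for TNFRSF10D. The siIGF2BP3 effect minus the siIGF2BP2 effect was 0.61 for FAS, 0.22 for TNFRSF10A, 0.18 for TNFRSF10D and -0.27 for CASP8. Each was fitted on 4 libraries in each of 4 groups.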

How the results depend on the processing

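Of 30 values called in the 14 contrasts, 26 stayed called in the same direction under every alternative run and none reversed. The 4 exceptions were CFLAR with Dox in sgAAVS1 cells, TNFRSF10A between the siRNA effects, and FAS with siControl against DMSO in both lines, and the libraries concerned are named with those results. Between the Dox effects of sgIGF2BP3 and sgAAVS1 cells, 1 of 7 genes was called, but 2 with upper-quartile factors and 2 with only the libraries compared (1 to 2 when single libraries were left out). For siControl against DMSO in sgIGF2BP2 cells the count was 1 to 2 when single libraries were left out. Uncalled values were followed only in the 5 treatment comparisons. Of these 18 values 6 changed sign in some alternative, all close to 0: TNFRSF10B with siIGF2BP2 was 0.0020 with upper-quartile factors. When single libraries were left out, CASP8 ran from -0.025 to 0.040 with Dox in sgIGF2BP2 cells, from -0.046 to 0.039 with Dox in sgIGF2BP3 cells and from -0.029 to 0.054 with siIGF2BP3. TNFRSF10D ran from -0.028 to 0.017 and FADD from -0.0019 to 0.038 with Dox in sgIGF2BP3 cells. The cause was not tested. Deviations from the group mean correlated between -0.15 and 0.11 over 180 same-numbered pairs of libraries. Their median was 0.012, beside -0.0051 for pairs with other numbers. Of 40 libraries 19 were closest to their own replicate number, of 4 numbers, so a weak pairing may exist and was not tested. With a replicate block the counts of called genes in the 5 treatment comparisons were again 5, 4, 2, 5 and 1. Counting depth limits FAS, CFLAR and ACTA2 most.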
